A study of Mus musculus with 22 samples.

Results

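The comparison is between mouse epiblast stem cell cultures with and without AICAR, before any passage. It takes 8 of the 22 libraries of the series, all of the Oct4GIP line, and they were chosen by medium and day alone. With AICAR there are 4 libraries, of AICAR and of AICAR+LIF at day 8 (d8) and at day 16 (d16). The other 4 are of Basal medium and of 2iL at the same days. Oct4GIP cells are primed epiblast stem cells of 129/Ola mice that express green fluorescent protein and puromycin resistance from an Oct4 promoter. They were plated on mouse embryonic fibroblast feeders in serum-free medium with FGF2 and Activin A and moved a day later to Basal medium, which contains knockout serum replacement and fetal bovine serum, or to Basal medium with 2iL, AICAR or AICAR+LIF. 2iL is a MEK inhibitor, a GSK3 inhibitor and the cytokine LIF. AICAR was given at a lower concentration in the first days and a higher one afterwards. Whole cultures were sequenced as stranded mRNA libraries, so reads of feeders and of differentiated cells are included. Each library is the only one of its medium and day. The 4 libraries of a side therefore differ in medium and day, no condition has a replicate, and p-values measure the spread among media within a day. LIF is present in 1 medium of each side, whereas the inhibitors are present only in 2iL.

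AICAR is taken up through adenosine transporters and phosphorylated by adenosine kinase to ZMP, an AMP mimic that activates AMP-activated protein kinase (AMPK). AMPK senses low energy charge, restrains the synthesis of lipids and protein and promotes catabolism. ZMP is also a normal intermediate of purine synthesis, so AICAR can act on purine enzymes as well. Glycolysis converts glucose to pyruvate and lactate and is prominent in primed pluripotent cells, and several of its genes are targets of the hypoxia-inducible factor HIF-1. The transcription factor ATF4 drives genes of amino acid synthesis and transport when translation is restrained (the integrated stress response), and p53 drives genes of cell cycle arrest and death after DNA or nucleotide stress.

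Depth was unequal between the sides. The total count was 956357 in AICAR d8 and 438771 in AICAR+LIF d8, and from 2396575 to 5290163 in the other 6 libraries. 3 counts, taken as the limit of detection, correspond to 3.14 and 6.84 CPM (counts scaled to an equal library total, here without further factors) in these 2 shallow libraries and to 0.567 to 1.25 CPM in the others. Such limits cover counting error only. A gene could pass the filter on low counts through 1 side alone, and list counts cover only the members that passed it. All gene levels are CPM of the library's total multiplied by its TMM factor, a scaling for differences in composition. Where a pair of levels is given for a day, the first is of Basal medium and the second of 2iL, or the first of AICAR and the second of AICAR+LIF. Mitochondrial genes took 1.77% to 3.14% of the counts of each library. In 2iL d16 the 100 most abundant genes held 22.5% of the counts and the factor was 0.840, against 13.5% to 16.4% and 0.988 to 1.07 in the other 7. The labels name epiblast as the tissue, but Pou5f1 (Oct4) was read only 4, 2, 4 and 2 times in the libraries without AICAR. Utf1 and Dppa4 had 0 counts in all 8 libraries. Other pluripotency genes were more abundant, and the 22 listed summed to 648 to 1047 CPM without AICAR, against 770 to 1905 CPM with it. In whole cultures, fewer cells of a type and less RNA per cell cannot be told apart.

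With the day as a covariate, 14026 genes were tested. 497 genes (3.54%) were higher and 850 (6.06%) lower with AICAR at an adjusted p under 0.05 in the quasi-likelihood test of edgeR. Without TMM factors the split was 776 higher and 650 lower, and the median log2 fold change of all tested genes moved from −0.02 to 0.07. In 692 genes (4.93% of those tested) every AICAR library lay above every library without AICAR, and in 904 (6.45%) below. The calls rest on libraries of both days. With the 2 shallow d8 libraries left out, 0 genes were called by edgeR, 3007 had an unadjusted p under 0.05 and the smallest adjusted p was 0.0527. All 497 higher and all 850 lower genes kept the sign of their fold change in that fit. AICAR d8 alone weighed most on the calls. Without it 68 genes were called higher and 177 lower, and 0 members were called in the lists of p53 targets, purine, AMPK, cholesterol, fatty acids, heat shock, interferon, smooth muscle, mesendoderm, neural, mesenchymal, fibroblast, macrophage, skeletal, basement membrane and matrix remodelling genes. Without 2iL d16, 1146 were called higher and 1508 lower. In d16 libraries alone, 2 against 2, 0 genes were called by edgeR and 2527 had an unadjusted p under 0.05. In d8 libraries alone, 1179 were called higher and 1616 lower. When both days were fitted together with a separate difference at each, 557 genes (3.97%) were called higher and 777 (5.54%) lower at d8, and 97 (0.692%) higher and 275 (1.96%) lower at d16.

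**Figure D1:**
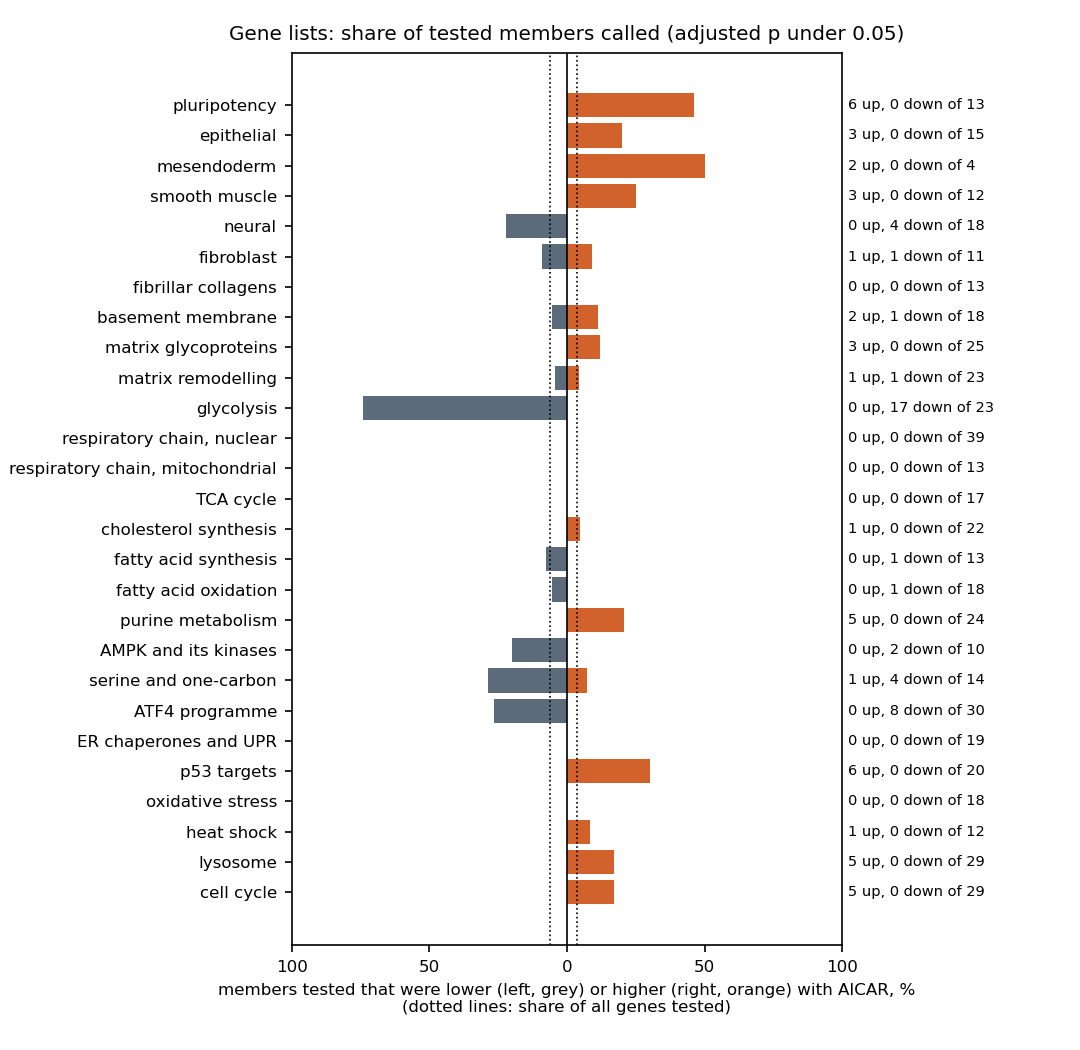
Share of the tested members of 27 gene lists that were lower (grey, left) or higher (orange, right) with AICAR, in percent, with the counts printed at the right. The dotted lines mark the share of all tested genes in each direction, and the longest bar is that of glycolysis, with 17 of 23 members lower. In lists of rare genes, such as the pluripotency and epithelial ones, some members passed the filter through the AICAR side alone, so their bars show no direction of the list.

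Genes of glycolysis were lower with AICAR. Of 23 listed genes, all 23 tested, 17 fell and 0 rose, against 6.06% of all genes that fell. The 17 are the kinases Hk1, Pfkl, Pfkm and Pfkp, the enzymes Aldoa, Aldoc, Tpi1, Pgk1, Pgam1, Eno1, Eno2, Pkm and Ldha, the regulatory enzymes Pfkfb3 and Pfkfb4, pyruvate dehydrogenase kinase Pdk1, which limits entry of pyruvate into the TCA cycle, and the lactate exporter Slc16a3 (MCT4). The median log2 fold change of the list was −0.93, against −0.02 for all genes tested. In 9 of the 23 every AICAR library was below every other library (6.45% of all genes). 22 of the 23 had a fold change below 0, and the exception was the hexokinase Hk2 (log2 fold change 0.07, SE 0.49, adjusted p = 0.951).

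Ldha, lactate dehydrogenase A, which reduces pyruvate to lactate (ENSMUSG00000063229, GRCm38 chromosome 7, 46841475 to 46855627), stood at 120.2 and 151 CPM at d8 and 224 and 245 CPM at d16 with AICAR, against 351 and 439 CPM at d8 and 879 and 832 CPM at d16 without it. The 4 AICAR libraries were all lower than the other 4, and both sides were higher at d16 than at d8. It was called over both days (log2 fold change −1.72, SE 0.16, adjusted p = 0.00552) and at each, with a difference of −1.55 (adjusted p = 0.00767) at d8 and −1.87 (adjusted p = 0.0117) at d16. Phosphofructokinase commits glucose carbon to glycolysis, and its liver subunit Pfkl (ENSMUSG00000020277, GRCm38 chromosome 10, 77986947 to 78010083) stood at 136 and 185 CPM at d8 and 352 and 263 CPM at d16 without AICAR, against 50.8 and 46.8 CPM at d8 and 53.5 and 60.6 CPM at d16 with it. Its AICAR libraries lay within a narrow range at both days, and the others were higher at d16 than at d8 (log2 fold change −2.10, SE 0.21, adjusted p = 0.00552). The platelet subunit Pfkp stood at 24.4 and 38.3 CPM at d8 and 96.8 and 118 CPM at d16 with AICAR, against 200.4 and 402 CPM at d8 and 607 and 456 CPM at d16 without it. Every AICAR library was lower (log2 fold change −2.74, SE 0.32, adjusted p = 0.00571). The muscle subunit Pfkm fell less and its sides overlapped (log2 fold change −0.86, SE 0.23, adjusted p = 0.0496).

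Pgk1, phosphoglycerate kinase, which makes ATP in the pathway (ENSMUSG00000062070, GRCm38 chromosome X, 106187100 to 106203699), stood at 289 and 437 CPM at d8 and 557 and 414 CPM at d16 without AICAR, against 124 and 97.9 CPM at d8 and 153 and 125 CPM at d16 with it. The sides did not overlap (log2 fold change −1.75, SE 0.19, adjusted p = 0.00552), and the fall was called at d8 (−1.69, adjusted p = 0.0135) and at d16 (−1.80, adjusted p = 0.0227). Triosephosphate isomerase, Tpi1, stood at 149.5 and 111 CPM at d8 and 255 and 273 CPM at d16 with AICAR, against 293 and 336 CPM at d8 and 710.3 and 643 CPM at d16 without it. Its AICAR libraries at d16 were below the d8 libraries without AICAR (log2 fold change −1.31, SE 0.15, adjusted p = 0.00552). Slc16a3 (ENSMUSG00000025161, GRCm38 chromosome 11, 120948480 to 120960868) stood at 13.1 and 26.8 CPM at d8 and 31.6 and 52.5 CPM at d16 without AICAR, against 3.91 and 4.26 CPM at d8 and 1.25 and 1.13 CPM at d16 with it. It was at or near 1 CPM in both AICAR libraries at d16, on 4 and 3 counts, so the size of its fall rests on few counts (log2 fold change −4.01, SE 0.60, adjusted p = 0.0107). Pdk1 stood at 9.77 and 6.39 CPM at d8 and 18.7 and 10.9 CPM at d16 with AICAR, against 32 and 51.2 CPM at d8 and 153 and 72.7 CPM at d16 without it, again without overlap (log2 fold change −2.71, SE 0.36, adjusted p = 0.00767).

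Some members did not pass the test. The glucose transporter Slc2a1 (GLUT1) was 1 of them (log2 fold change −0.40, SE 0.45, adjusted p = 0.596), and its 2 AICAR libraries were above the other 2 at d8 and below them at d16 (39.2 and 69.2 CPM at d8 and 137 and 80.2 CPM at d16 without AICAR, against 82.1 and 97.9 CPM at d8 and 40.8 and 41.1 CPM at d16 with it). Gapdh, which has many near-identical pseudogene copies, so that its reads may be lost or split, was another (log2 fold change −0.40, SE 0.21, adjusted p = 0.247). Pyruvate kinase Pkm passed it narrowly at 767 and 732 CPM at d8 and 509 and 539 CPM at d16 with AICAR, against 1016 and 1141 CPM at d8 and 755 and 1159 CPM at d16 without it, with overlapping sides (log2 fold change −0.70, SE 0.18, adjusted p = 0.0441). Ldha, Tpi1, Pgk1, Pgam1, Eno1, Pkm and Aldoa have processed pseudogenes too, and their levels are uncertain to that extent. When each of the 8 libraries was left out in turn, 7 to 17 members remained called, with 7 without AICAR d8. With both shallow libraries left out, 0 were called by edgeR but 23 of 23 were below 0, with a median of −1.15 and an unadjusted p under 0.05 in 21. Fitted by day, 8 members fell at d8 (5.54% of all genes) and 12 at d16 (1.96% of all genes), and the proton-coupled lactate carrier Slc16a1 was higher at d8 (1.10, adjusted p = 0.048).

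**Figure D2:**
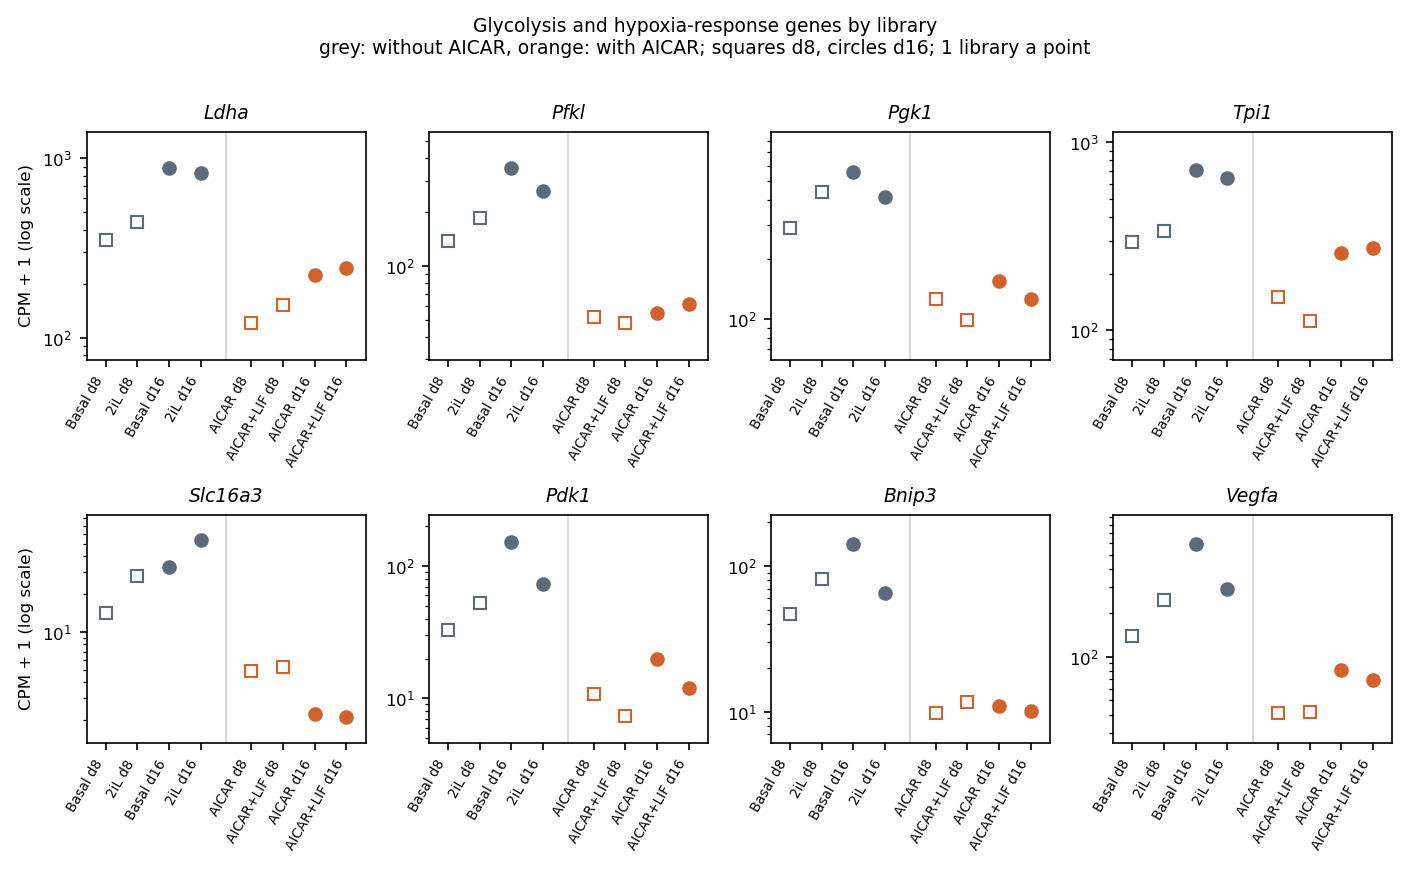
Levels of 8 genes in the 8 libraries, as CPM plus 1 on a log axis, with libraries without AICAR in grey and with AICAR in orange, d8 as open squares and d16 as filled circles. In all 8 panels the 4 AICAR libraries lie below the 4 others.

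Targets of HIF-1 were read from a list of 27 genes that was written after the values were seen, so its count describes these libraries only. It shares Pdk1, Pfkfb3, Pfkfb4 and Slc2a1 with the glycolysis list. Of 25 tested, 9 were lower (6.06% of all genes) and 0 higher, 3 of the 9 being Pdk1, Pfkfb3 and Pfkfb4, and the median log2 fold change was −0.99. With 1 library left out 5 to 12 were lower, with 5 without AICAR d8, AICAR d16, AICAR+LIF d16 or Basal d16 and 12 without 2iL d16. Vegfa, the endothelial growth factor, stood at 137 and 242 CPM at d8 and 588 and 291 CPM at d16 without AICAR, against 40.1 and 40.4 CPM at d8 and 80 and 68.2 CPM at d16 with it. Every AICAR library was lower (log2 fold change −2.42, SE 0.28, adjusted p = 0.00571). Bnip3, a receptor of mitophagy, stood at 8.8 and 10.6 CPM at d8 and 9.96 and 9.04 CPM at d16 with AICAR, against 45.7 and 80.4 CPM at d8 and 141 and 64.3 CPM at d16 without it, and its 4 AICAR libraries were nearly level (log2 fold change −3.17, SE 0.35, adjusted p = 0.00552). The prolyl hydroxylase Egln3 (log2 fold change −1.82, SE 0.25, adjusted p = 0.00879) and Higd1a (log2 fold change −0.96, SE 0.25, adjusted p = 0.0448) were lower too. Ndufa4l2, a mitochondrial protein of low oxygen (ENSMUSG00000040280, GRCm38 chromosome 10, 127514967 to 127517154), stood at 4.81 and 4.4 CPM at d8 and 102 and 83.2 CPM at d16 without AICAR, against 3.91 and 2.13 CPM at d8 and 0.623 and 3.77 CPM at d16 with it, so it was low on both sides at d8 and the difference was at d16 (log2 fold change −4.44, SE 0.90, adjusted p = 0.0237). P4ha1, the collagen prolyl hydroxylase, fell as well (log2 fold change −1.12, SE 0.18, adjusted p = 0.0117), while its paralog P4ha2 did not pass the test (log2 fold change −0.17, SE 0.19, adjusted p = 0.579). Without the 2 shallow libraries, 24 of 25 listed genes were below 0.

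The 250 bases before the start of 4 of these genes are printed because the genes fell together and because each is a textbook HIF-1 target. They were read from the RefSeq promoter table (GRCm38.p6), 1 window for each gene, the first listed. Capitals mark the core of the hypoxia response element, searched as ACGTG and GCGTG on both strands, where CACGTG is a match on each. The windows are Ldha at chr7:46845554-46845803 on the plus strand, Pgk1 at chrX:106186850-106187099 on the plus strand, Bnip3 at chr7:138909507-138909756 on the minus strand and Pdk1 at chr2:71872974-71873223 on the plus strand. The Ldha window lies inside the span of the gene given above. It precedes the start listed first by RefSeq and not the outermost start of that span.
Ldha: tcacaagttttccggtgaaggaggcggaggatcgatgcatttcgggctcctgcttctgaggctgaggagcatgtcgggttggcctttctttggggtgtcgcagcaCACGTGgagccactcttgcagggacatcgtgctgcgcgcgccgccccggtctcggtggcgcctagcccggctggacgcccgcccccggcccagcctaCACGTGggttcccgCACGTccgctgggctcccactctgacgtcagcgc
Pgk1: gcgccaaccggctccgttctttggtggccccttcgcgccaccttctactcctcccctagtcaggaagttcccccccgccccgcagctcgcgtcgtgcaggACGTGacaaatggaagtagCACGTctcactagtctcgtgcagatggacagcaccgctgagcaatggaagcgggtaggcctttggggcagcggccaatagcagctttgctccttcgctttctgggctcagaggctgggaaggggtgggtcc
Bnip3: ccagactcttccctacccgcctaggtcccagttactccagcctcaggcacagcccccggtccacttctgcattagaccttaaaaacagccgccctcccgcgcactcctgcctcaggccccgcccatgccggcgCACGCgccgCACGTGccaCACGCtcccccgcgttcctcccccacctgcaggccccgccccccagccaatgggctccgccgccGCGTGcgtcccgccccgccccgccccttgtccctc
Pdk1: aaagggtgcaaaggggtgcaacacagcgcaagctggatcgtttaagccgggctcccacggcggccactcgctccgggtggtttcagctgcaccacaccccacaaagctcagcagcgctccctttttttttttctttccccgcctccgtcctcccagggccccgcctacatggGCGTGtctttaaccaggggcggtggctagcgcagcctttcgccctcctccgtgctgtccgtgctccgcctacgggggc
Of all 27025 windows, 38.6% held the core. It was present in 12 of the 17 glycolysis genes that fell and in 5 of the 6 that did not pass the test, and in 7 of 8 listed hypoxia genes that fell and have a window (of 9) and 8 of 10 of the others with one (of 16). The letters were thus present in members of both kinds, and a match is a description of the window only.

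Few genes of other pathways of energy metabolism were called. Of 39 nuclear genes of the respiratory chain (median 0.05) and 13 mitochondrial ones (median 0.00), 0 were called by edgeR, DESeq2 or limma voom and 0 had an unadjusted p under 0.05. Among these, the cytochrome oxidase subunit mt-Co1 had values that overlapped between the sides (log2 fold change −0.30, SE 0.23, adjusted p = 0.426). Without the 2 shallow libraries 22 of the 39 nuclear genes (median −0.06) and 13 of the 13 mitochondrial ones (median −0.19) were below 0. In that fit 0 and 1 had an unadjusted p under 0.05. Of 17 genes of the TCA cycle (median −0.04) 0 were called by these 3 methods and 2 had an unadjusted p under 0.05. Of 18 genes of fatty acid oxidation, 1 fell, a share near the 6.06% of all genes. It was Ppargc1a, the coactivator of mitochondrial biogenesis, at 4.89 and 2.13 CPM at d8 and 22.1 and 16.2 CPM at d16 with AICAR, against 11.7 and 10.8 CPM at d8 and 54.6 and 28.6 CPM at d16 without it (log2 fold change −1.24, SE 0.31, adjusted p = 0.0416). Cpt1a, which admits fatty acids to mitochondria, did not pass the test (log2 fold change −0.11, SE 0.17, adjusted p = 0.712). Without the 2 shallow libraries 17 of the 18 were below 0 (median −0.40), with an unadjusted p under 0.05 in 5, while the median of the list at d8 was 0.40. Among 13 genes of fatty acid synthesis 1 fell, again a share near that of all genes. Srebf1, the lipogenic transcription factor, fell (log2 fold change −0.71, SE 0.16, adjusted p = 0.0289) and the synthase Fasn did not pass the test (log2 fold change −0.68, SE 0.27, adjusted p = 0.139). Fasn was called at d8 (−1.28, adjusted p = 0.0206), with 686 and 729 CPM at d8 and 308 and 430.4 CPM at d16 without AICAR, against 339 and 241 CPM at d8 and 376 and 321 CPM at d16 with it. Of 22 genes of cholesterol synthesis, 1 rose, Idi1 (log2 fold change 0.97, SE 0.20, adjusted p = 0.0232), a share near the 3.54% of all genes, with a median of 0.42. At d16, 2 were called higher (0.692% of all genes), and without the 2 shallow libraries 22 of 22 were above 0 (median 0.90). The synthase Hmgcs1 did not pass the test over both days (log2 fold change 0.08, SE 0.22, adjusted p = 0.843).

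Purine genes were tested because AICAR enters that pathway. Of 24 tested, 5 rose and 0 fell, against 3.54% of all genes that rose, with a median of 0.04. Fitted by day, 5 were called higher at d8 (3.97% of all genes, list median 0.34) and 0 at d16 (0.692%, list median −0.10). Atic, the bifunctional enzyme that uses ZMP (ENSMUSG00000026192, GRCm38 chromosome 1, 71557150 to 71579631), stood at 83.1 and 89.4 CPM at d8 and 77.2 and 74.2 CPM at d16 with AICAR, against 57.4 and 64.8 CPM at d8 and 46.2 and 48.3 CPM at d16 without it. The sides did not overlap, though the step was small (log2 fold change 0.59, SE 0.13, adjusted p = 0.0305). Impdh2, the branch-point enzyme of guanine nucleotide synthesis, stood at 68.8 and 106 CPM at d8 and 82.6 and 92 CPM at d16 without AICAR, against 192 and 151 CPM at d8 and 147 and 141 CPM at d16 with it (log2 fold change 0.85, SE 0.18, adjusted p = 0.0249). Adss, which makes adenylosuccinate, (log2 fold change 0.56, SE 0.13, adjusted p = 0.0317) and Gart, an earlier enzyme of the pathway, (log2 fold change 0.69, SE 0.15, adjusted p = 0.0304) rose by a similar amount. Nt5e (CD73), an ectonucleotidase that makes adenosine, rose more (log2 fold change 2.29, SE 0.45, adjusted p = 0.0225). Adenosine kinase Adk, which phosphorylates AICAR, (log2 fold change 0.09, SE 0.22, adjusted p = 0.827) and the nucleoside transporters Slc29a1 (log2 fold change −1.06, SE 0.41, adjusted p = 0.131) and Slc29a2 (log2 fold change −1.16, SE 0.32, adjusted p = 0.0558) did not pass the test. Without AICAR d8, 0 members were called, and 1 was called in counts thinned to the smallest total. Of the 24, 8 had an unadjusted p under 0.05.

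Of 10 tested genes of AMPK and its upstream kinases, 2 fell (6.06% of all genes) and 0 rose. Camkk2, an activating kinase, stood at 27.4 and 17 CPM at d8 and 26.1 and 36.9 CPM at d16 with AICAR, against 62.2 and 58 CPM at d8 and 51.2 and 79.4 CPM at d16 without it, lower in every AICAR library (log2 fold change −1.19, SE 0.23, adjusted p = 0.0203). The γ2 subunit Prkag2 fell too (log2 fold change −0.99, SE 0.21, adjusted p = 0.0249). The catalytic subunit Prkaa1 did not pass the test (log2 fold change 0.22, SE 0.24, adjusted p = 0.567). These are transcript levels, and the activity of the kinase was not measured in these files. In serine and one-carbon metabolism, 4 of 14 fell (6.06% of all genes) and 1 rose (3.54%). Those that fell include Psat1 and Psph, which make serine, and the mitochondrial folate enzyme Aldh1l2 (log2 fold change −1.92, SE 0.36, adjusted p = 0.0191), and the 1 that rose was Mthfd1l, a mitochondrial synthetase of formate (log2 fold change 1.16, SE 0.27, adjusted p = 0.0322).

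Several genes of the pluripotent state were higher with AICAR. Of 22 listed genes 13 passed the filter on low counts, of which 6 rose (3.54% of all genes) and 0 fell. Members such as Pou5f1, Lefty1 and Nanog were near the limit of detection without AICAR and passed through the AICAR side, so this count gives no direction for the list. The summed level of all 22 was 770.1 to 1905 CPM with AICAR and 648 to 1047 CPM without, so the sides overlapped. Nanog, a core pluripotency factor (ENSMUSG00000012396, GRCm38 chromosome 6, 122707489 to 122714633), stood at 1.38 and 2 CPM at d8 and 3.03 and 5.04 CPM at d16 without AICAR, against 23.5 and 80.9 CPM at d8 and 4.36 and 29 CPM at d16 with it. It was higher with AICAR+LIF than with AICAR at both days, and AICAR d16 overlapped the other side (log2 fold change 3.28, SE 0.82, adjusted p = 0.0416). The Oct4 gene Pou5f1 followed the same order, at 14.7 and 38.3 CPM at d8 and 3.74 and 21.5 CPM at d16 with AICAR, against 1.38 and 0.8 CPM at d8 and 0.758 and 0.84 CPM at d16 without it, without overlap. Sall4 stood at 7.91 and 10.4 CPM at d8 and 0.189 and 0 CPM at d16 without AICAR, against 38.1 and 36.2 CPM at d8 and 7.47 and 13.6 CPM at d16 with it, so that it was below the limit of detection without AICAR at d16 (log2 fold change 3.00, SE 0.62, adjusted p = 0.0248). Lin28a, an RNA-binding protein of pluripotent cells, stood at 32.3 and 36.2 CPM at d8 and 3.11 and 4.14 CPM at d16 with AICAR, against 6.53 and 5.2 CPM at d8 and 0 and 0.84 CPM at d16 without it, and was lower at d16 than at d8 on both sides (log2 fold change 2.76, SE 0.48, adjusted p = 0.0155). The DNA methyltransferase Dnmt3b (log2 fold change 1.25, SE 0.25, adjusted p = 0.0234) and the Nodal antagonist Lefty1, at 0 and 2.8 CPM at d8 and 1.14 and 4.2 CPM at d16 without AICAR, against 144 and 368 CPM at d8 and 10.9 and 128 CPM at d16 with it, were the other members that rose. Nodal itself was too rare to be tested and stood at 29.3 and 46.8 CPM at d8 and 0.934 and 8.29 CPM at d16 with AICAR, against 0.344 and 0 CPM at d8 and 0 and 0 CPM at d16 without it. Sox2, which neural cells also express, did not pass the test (log2 fold change −0.72, SE 0.28, adjusted p = 0.133), nor did Epcam (log2 fold change 1.57, SE 0.57, adjusted p = 0.11). When 1 library was left out 2 to 9 members were called, with 2 without AICAR d8 and 9 without 2iL d16. In thinned counts, where fewer genes passed the filter, 0 of the list were called by edgeR.

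Markers of the naive state were mostly too rare to be tested. Of 17 listed genes 5 passed the filter on low counts. Over both days 0 were called by edgeR or limma voom in either direction, DESeq2 called 1 lower and 1 had an unadjusted p under 0.05. At d8 alone edgeR called Gbx2 lower (−4.41, adjusted p = 0.0445). Zfp42 (Rex1) had 2 counts in Basal d16 and 0 in the other 7 libraries.

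Some epithelial genes were higher with AICAR, with most calls at d8. Of 25 listed genes 15 passed the filter, of which 3 rose (3.54% of all genes) and 0 fell over both days, while at d8 8 rose (3.97% of all genes) and 0 fell. Members such as Cdh1 and Dsp were rare without AICAR and passed through the AICAR side, so these counts give no direction for the list. The summed level of all 25 was 327 to 2167 CPM with AICAR and 186 to 644 CPM without, so the sides overlapped. Cdh1, the E-cadherin of epithelial junctions, stood at 0.688 and 0.8 CPM at d8 and 1.33 and 1.68 CPM at d16 without AICAR, against 67.4 and 129.8 CPM at d8 and 22.4 and 10.2 CPM at d16 with it. Its difference was 6.94 (adjusted p = 0.00531) at d8 and 3.45 (adjusted p = 0.0272) at d16. Dsp, the desmoplakin of desmosomes (ENSMUSG00000054889, GRCm38 chromosome 13, 38151294 to 38198577), stood at 161 and 226 CPM at d8 and 16.5 and 13.9 CPM at d16 with AICAR, against 1.72 and 6.8 CPM at d8 and 4.55 and 2.52 CPM at d16 without it. The 2 AICAR libraries at d8 were far above the 2 at d16 (log2 fold change 3.85, SE 0.73, adjusted p = 0.02). Krt7 rose as well (log2 fold change 2.94, SE 0.71, adjusted p = 0.0393), as did Krt5, a keratin of basal epithelium that is not on the list, at 0.344 and 0 CPM at d8 and 1.52 and 0 CPM at d16 without AICAR, against 79.2 and 134 CPM at d8 and 7.47 and 3.77 CPM at d16 with it (log2 fold change 5.37, SE 1.09, adjusted p = 0.0238), on 1, 0, 8 and 0 counts without AICAR. Several members were too rare to be tested over both sides. The claudin Cldn4 stood at 67.4 and 129.8 CPM at d8 and 2.18 and 7.16 CPM at d16 with AICAR, against 0 and 0 CPM at d8 and 0.189 and 0 CPM at d16 without it, and the desmosomal Pkp3 at 0 counts in all 4 libraries without AICAR and at 13.7 and 19.2 CPM at d8 and 0.934 and 1.51 CPM at d16 with it. Without the 2 shallow libraries 6 of 15 members were above 0 and 9 below (median −0.71).

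Mesendoderm markers, which mark early gastrulation, were scarce. Of 14 listed, 4 passed the filter. T and Eomes rose over both days (3.54% of all genes), both of them rare without AICAR, and Lhx1 was called lower at d8 (−2.43, adjusted p = 0.0411). The summed level of all 14 was 63.9 to 122 CPM with AICAR and 18.8 to 326 CPM without. The sides thus overlapped, and these counts give no direction for the list. T (Brachyury) stood at 2.06 and 8.4 CPM at d8 and 1.71 and 3.36 CPM at d16 without AICAR, against 13.7 and 8.51 CPM at d8 and 45.8 and 38.8 CPM at d16 with it. At d8, AICAR+LIF (8.51 CPM) and 2iL (8.4 CPM) were nearly level. The levels of T were highest in the 2 AICAR libraries at d16 (log2 fold change 2.78, SE 0.69, adjusted p = 0.0409, d16 4.14, adjusted p = 0.0227). Eomes followed that pattern, at 7.82 and 8.51 CPM at d8 and 24 and 21.1 CPM at d16 with AICAR, against 2.75 and 0 CPM at d8 and 4.17 and 1.68 CPM at d16 without it (log2 fold change 2.70, SE 0.57, adjusted p = 0.0258). Gata4 and Gata6 stayed under 7 CPM in all 8 libraries. Among cardiac genes, cardiac actin Actc1 stood at 0.344 and 3.2 CPM at d8 and 0.947 and 4.2 CPM at d16 without AICAR, against 22.5 and 129.8 CPM at d8 and 52.9 and 12.1 CPM at d16 with it (log2 fold change 4.56, SE 0.88, adjusted p = 0.0208), while Tnnt2 and Des were too rare to be tested. Smooth muscle genes rose in 3 of 12 (median 1.37), against 3.54% of all genes, and in 0 to 9 with 1 library left out, with 9 without 2iL d16 and 0 without AICAR d8, AICAR+LIF d16 or Basal d8. These were the tropomyosin Tpm1, at 621 and 1205 CPM at d8 and 494 and 763 CPM at d16 with AICAR, against 91.8 and 100.4 CPM at d8 and 169 and 338 CPM at d16 without it (log2 fold change 2.26, SE 0.47, adjusted p = 0.0248), calponin Cnn1 (log2 fold change 2.54, SE 0.63, adjusted p = 0.0416) and the matricellular Ccn2 (log2 fold change 1.85, SE 0.39, adjusted p = 0.0254). Acta2 (log2 fold change 1.52, SE 0.55, adjusted p = 0.109) and Tagln (log2 fold change 1.68, SE 0.53, adjusted p = 0.0789) did not pass the test, and both were higher with LIF on the AICAR side at d16.

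Some neural genes were lower, mainly at d8. Of 18 tested, 4 fell (6.06% of all genes) and 0 rose over both days (median −1.09), and 7 fell at d8 (5.54% of all genes) against 0 at d16 (1.96%). Stmn2, a tubulin regulator of neurons (ENSMUSG00000027500, GRCm38 chromosome 3, 8509360 to 8561606), stood at 236 and 170.0 CPM at d8 and 87 and 72.2 CPM at d16 without AICAR, against 70.4 and 72.4 CPM at d8 and 39.8 and 47.1 CPM at d16 with it (log2 fold change −1.18, SE 0.19, adjusted p = 0.0124). The adhesion molecule Ncam1 stood at 149 and 128 CPM at d8 and 168 and 222 CPM at d16 with AICAR, against 657 and 423 CPM at d8 and 299.7 and 287 CPM at d16 without it. Its 4 AICAR libraries were below the others (log2 fold change −1.26, SE 0.30, adjusted p = 0.0372). Pou3f2, a neurogenic transcription factor, fell too (log2 fold change −1.14, SE 0.27, adjusted p = 0.0353). Gfap, of astrocytes, was at most 2.80 CPM in all libraries at d8 and stood at 4536 and 13629 CPM in Basal medium and 2iL at d16 against 2414 and 2293 CPM in AICAR and AICAR+LIF (log2 fold change −1.92, SE 0.50, adjusted p = 0.0474). Pax6 did not pass the test (log2 fold change −0.66, SE 0.41, adjusted p = 0.327) and neither did Tubb3 (log2 fold change −0.75, SE 0.36, adjusted p = 0.208), which was called at d8 (−1.61, adjusted p = 0.0173). A further list of 31 neuronal genes, written after the values were seen, had 8 of 24 lower (6.06% of all genes) and 0 higher, with 3 lower without AICAR d8 and 17 without 2iL d16. It includes Scg3, of secretory granules, at 102 and 124 CPM at d8 and 94.5 and 301 CPM at d16 without AICAR, against 12.7 and 4.26 CPM at d8 and 31.1 and 25.6 CPM at d16 with it (log2 fold change −3.06, SE 0.41, adjusted p = 0.00802). The neural count moved from 0 without AICAR d8 to 10 without 2iL d16, and without the 2 shallow libraries 14 of 18 were below 0 (median −0.40).

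**Figure D3:**
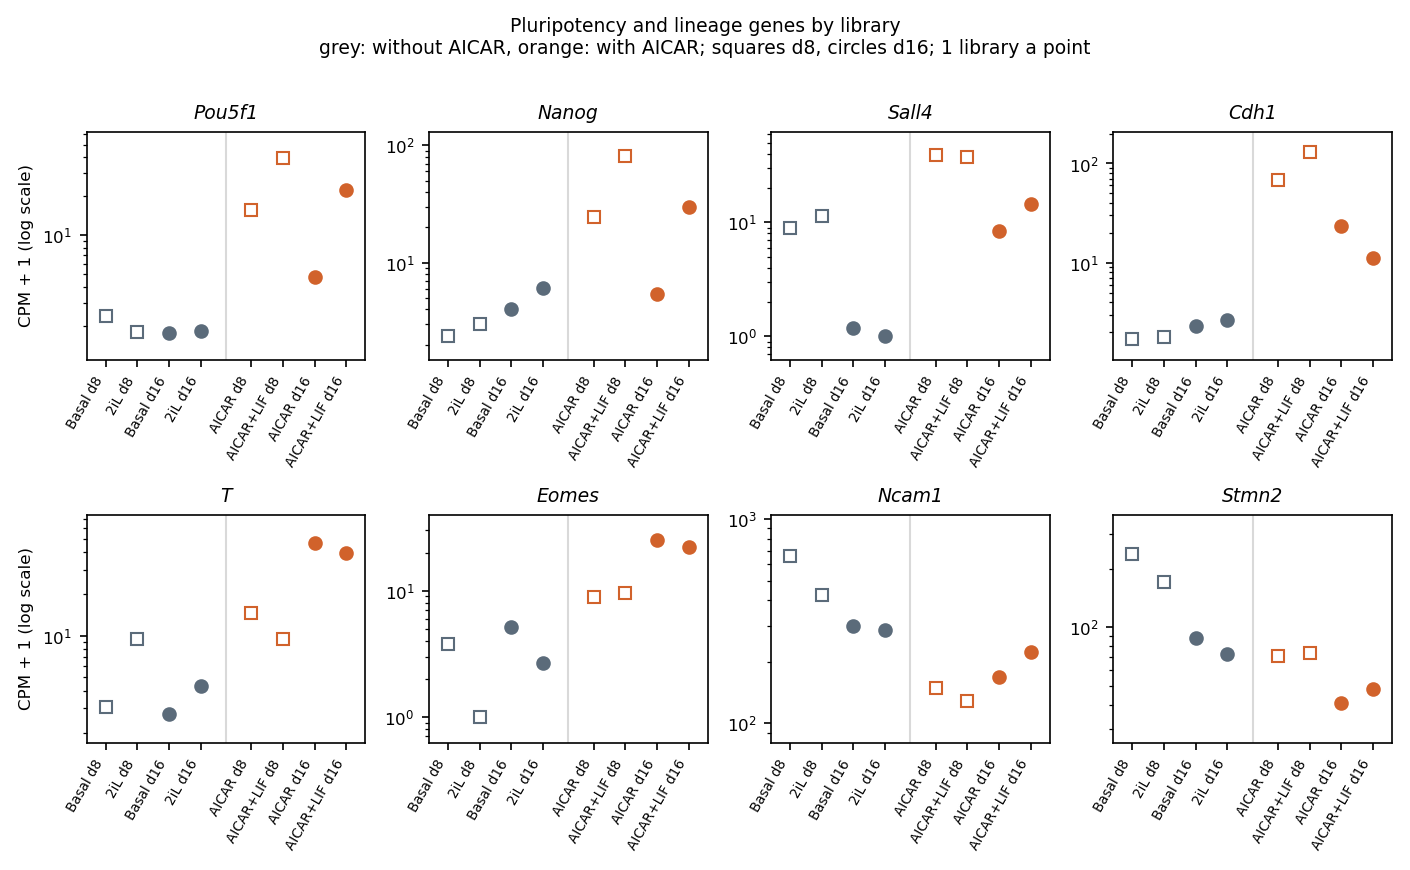
Levels of 8 pluripotency and lineage genes in the 8 libraries, as CPM plus 1 on a log axis, with libraries without AICAR in grey and with AICAR in orange, d8 as open squares and d16 as filled circles. Pou5f1, Cdh1, T and Eomes are above the other side in every AICAR library, Ncam1 is below, and Nanog, Sall4 and Stmn2 overlap.

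Of 6 tested genes of the skeletal list, 1 rose (3.54% of all genes) and 1 fell (6.06%), and 0 were called without AICAR d8. The cartilage collagen Col2a1 stood at 544 and 470.4 CPM at d8 and 342 and 384 CPM at d16 with AICAR, against 273 and 146 CPM at d8 and 121 and 23.1 CPM at d16 without it (log2 fold change 1.80, SE 0.47, adjusted p = 0.0488), while Sox9, a transcription factor of cartilage and of neural progenitors, fell (log2 fold change −1.18, SE 0.19, adjusted p = 0.0119). Peg10, an imprinted gene needed by the placenta and the only tested member of the trophoblast list, stood at 249.9 and 172 CPM at d8 and 63.5 and 48.3 CPM at d16 without AICAR, against 800.4 and 759.9 CPM at d8 and 633 and 538 CPM at d16 with it. It was higher in every AICAR library and called at both days (log2 fold change 2.63, SE 0.33, adjusted p = 0.00658). Dmrta2, a neural progenitor factor outside the lists, rose (log2 fold change 3.89, SE 0.51, adjusted p = 0.00767), as did the prokineticin receptor Prokr2 (log2 fold change 3.52, SE 0.53, adjusted p = 0.0111). Elfn2 (log2 fold change −3.60, SE 0.56, adjusted p = 0.0113), Phf24 (log2 fold change −3.82, SE 0.47, adjusted p = 0.00608) and the copper transporter Atp7b (log2 fold change −3.54, SE 0.43, adjusted p = 0.00608) were among the largest falls.

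The extracellular matrix was mixed. Of 13 fibrillar collagen genes (median −0.17), 0 were called by edgeR or limma voom and 1 by DESeq2, and 1 had an unadjusted p under 0.05. With 1 library left out, up to 4 were called higher and up to 1 lower. Col1a1 stood at 1036 and 937 CPM at d8 and 5458 and 6739 CPM at d16 with AICAR, against 1385 and 1331 CPM at d8 and 2348 and 17818 CPM at d16 without it. It was highest in 2iL d16, and the sides overlapped (log2 fold change −0.59, SE 0.49, adjusted p = 0.46). Matrix glycoproteins rose in 3 of 25 (median 0.58), against 3.54% of all genes. Tenascin C, Tnc (ENSMUSG00000028364, GRCm38 chromosome 4, 63959785 to 64047015), stood at 196 and 169 CPM at d8 and 709.8 and 347 CPM at d16 without AICAR, against 969 and 1245 CPM at d8 and 841 and 1995 CPM at d16 with it, higher in every AICAR library (log2 fold change 2.00, SE 0.39, adjusted p = 0.0208). Periostin, Postn, stood at 866 and 758 CPM at d8 and 605 and 1064 CPM at d16 with AICAR, against 283 and 140.4 CPM at d8 and 237 and 286 CPM at d16 without it (log2 fold change 1.81, SE 0.27, adjusted p = 0.0104). Fibronectin, Fn1, stood at 706 and 429 CPM at d8 and 687 and 2791 CPM at d16 without AICAR, against 2475 and 2744 CPM at d8 and 3495 and 4596 CPM at d16 with it, where 2iL d16 overlapped the AICAR side (log2 fold change 1.71, SE 0.44, adjusted p = 0.0445). The glycoprotein count was 11 without 2iL d16 and 1 without AICAR d8.

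In basement membranes 2 of 18 rose (3.54% of all genes) and 1 fell, a share near the 6.06% of all genes (median 0.38). Lamc1, a laminin chain shared by most laminins, stood at 281 and 253 CPM at d8 and 622 and 514 CPM at d16 with AICAR, against 103 and 83.6 CPM at d8 and 283 and 372 CPM at d16 without it (log2 fold change 1.15, SE 0.20, adjusted p = 0.0155), the collagen Col4a2 rose (log2 fold change 0.91, SE 0.21, adjusted p = 0.0322) and its partner Col4a1 did not pass the test (log2 fold change 0.83, SE 0.24, adjusted p = 0.0633). Agrin, Agrn, fell (log2 fold change −0.65, SE 0.15, adjusted p = 0.031). At d8 5 members rose (3.97% of all genes). Of 23 genes that process matrix 1 rose and 1 fell, shares near the 3.54% and 6.06% of all genes. The crosslinking enzyme Loxl1 rose, at 15.8 and 8 CPM at d8 and 32 and 63.8 CPM at d16 without AICAR, against 65.5 and 89.4 CPM at d8 and 106 and 215 CPM at d16 with it (log2 fold change 2.15, SE 0.37, adjusted p = 0.015), and P4ha1 fell, as given above. The collagen chaperone Serpinh1 did not pass the test (log2 fold change 0.31, SE 0.34, adjusted p = 0.574). With 2iL d16 left out, 10 of the 23 were called higher, and so were 1146 of all 14380 genes tested in that fit.

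Fibroblast markers, which feeders express, moved both ways beside these genes. The summed level of the 14 listed was 506 to 2070 CPM with AICAR and 331 to 2322 without. Of 11 tested, Pdgfrb rose (log2 fold change 0.84, SE 0.20, adjusted p = 0.0364) and Dpt fell, at 1.95 and 2.13 CPM at d8 and 1.87 and 2.26 CPM at d16 with AICAR, against 5.84 and 11.2 CPM at d8 and 19.5 and 101 CPM at d16 without it (log2 fold change −4.25, SE 0.81, adjusted p = 0.0203). Dpt was below the limit of detection with AICAR at d8 and by far highest in 2iL d16, so the size of its fall is uncertain. Pdgfra did not pass the test (log2 fold change −0.92, SE 0.60, adjusted p = 0.341), and in Thy1 the sides were opposite at the 2 days (34.4 and 12 CPM at d8 and 125 and 218 CPM at d16 without AICAR, against 52.8 and 72.4 CPM at d8 and 15.9 and 58.8 CPM at d16 with it). Prrx1 did not pass the test (log2 fold change 1.71, SE 0.49, adjusted p = 0.06). The part of feeder cells in the matrix values was not tested. Of mesenchymal genes, 1 of 10 fell (6.06% of all genes), Zeb1, a repressor of E-cadherin (log2 fold change −0.70, SE 0.16, adjusted p = 0.0322). Without TMM factors Zeb1 was not called (log2 fold change −0.62, adjusted p = 0.0592) and 2 members were called higher, while Vim was level (log2 fold change −0.01, SE 0.18, adjusted p = 0.991).

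Part of the ATF4 programme was lower with AICAR. Of 30 tested 8 fell and 0 rose, against 6.06% of all genes that fell, and the median was −0.74. 10 of the 30 had every AICAR library below the others (6.45% of all genes). The 8 were the transcription factors Atf5 and Ddit3 (CHOP), asparagine synthetase Asns, the serine enzyme Psat1, the arginine carrier Slc7a3, Vldlr, Trib3 and the glutathione-degrading Chac1. Atf5 (ENSMUSG00000038539, GRCm38 chromosome 7, 44812256 to 44816658) stood at 9.77 and 27.7 CPM at d8 and 35.8 and 29.4 CPM at d16 with AICAR, against 133 and 134 CPM at d8 and 92.3 and 92.4 CPM at d16 without it. All 4 AICAR libraries were lower (log2 fold change −2.10, SE 0.34, adjusted p = 0.0127). Psat1, phosphoserine aminotransferase, stood at 160.2 and 286 CPM at d8 and 164 and 185 CPM at d16 without AICAR, against 59.6 and 46.8 CPM at d8 and 84.7 and 73.8 CPM at d16 with it, again without overlap (log2 fold change −1.56, SE 0.26, adjusted p = 0.0127). Chac1 stood at 0.977 and 4.26 CPM at d8 and 0.934 and 0.377 CPM at d16 with AICAR, against 23 and 38 CPM at d8 and 9.47 and 5.04 CPM at d16 without it, on 1, 2, 3 and 1 counts with AICAR (log2 fold change −3.59, SE 0.48, adjusted p = 0.00802). Ddit3 stood at 17.2 and 35.2 CPM at d8 and 20.8 and 18.9 CPM at d16 without AICAR, against 3.91 and 8.51 CPM at d8 and 7.16 and 8.29 CPM at d16 with it (log2 fold change −1.68, SE 0.35, adjusted p = 0.0251). Asns stood at 44 and 57.5 CPM at d8 and 26.1 and 36.9 CPM at d16 with AICAR, against 128 and 171 CPM at d8 and 56.8 and 35.3 CPM at d16 without it. It overlapped at d16 and its p was close to the threshold (log2 fold change −1.05, SE 0.28, adjusted p = 0.0496). Atf4 itself did not pass the test (log2 fold change −0.43, SE 0.22, adjusted p = 0.222), nor did the neutral amino acid carrier Slc7a5 (log2 fold change −1.32, SE 0.41, adjusted p = 0.0738), which was called at d8 (−2.37, adjusted p = 0.0103). At d8 12 members fell (5.54% of all genes) and at d16 2 (1.96%). Without the 2 shallow libraries 24 of 30 were below 0 (median −0.54), and the count ranged from 2 without AICAR d8 to 12 without 2iL d16.

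The composite site of C/EBP and ATF factors, searched as TGATGNAA on both strands of the 250 bases before the start, is shown in capitals for the 2 members that fell and hold it. The windows are Chac1 at chr2:119350992-119351241 on the plus strand and Asns at chr6:7693210-7693459 on the minus strand (RefSeq, GRCm38.p6).
Chac1: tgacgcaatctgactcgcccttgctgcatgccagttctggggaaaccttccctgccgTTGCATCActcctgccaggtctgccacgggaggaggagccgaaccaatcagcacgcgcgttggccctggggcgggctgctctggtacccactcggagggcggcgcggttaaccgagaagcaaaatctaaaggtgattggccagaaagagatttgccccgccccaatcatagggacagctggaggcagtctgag
Asns: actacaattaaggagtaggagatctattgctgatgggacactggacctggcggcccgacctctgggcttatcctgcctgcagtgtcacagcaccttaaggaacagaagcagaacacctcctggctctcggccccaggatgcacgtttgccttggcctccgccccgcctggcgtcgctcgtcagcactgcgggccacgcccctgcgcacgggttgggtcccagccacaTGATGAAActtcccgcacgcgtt
Of all 27025 windows 3.53% held the letters. They were in 2 of the 7 members that fell and have a window (of 8) and in 6 of 18 others with one (of 22), so again in members of both kinds.

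Several targets of p53 were higher with AICAR. Of 20 tested 6 rose and 0 fell, against 3.54% of all genes that rose, and the median was 0.96. Fitted by day, 6 were called higher at d8 (3.97% of all genes, list median 0.92) and 0 at d16 (0.692%, list median 0.64). Ccng1, cyclin G1 (ENSMUSG00000020326, GRCm38 chromosome 11, 40748552 to 40755311), stood at 182 and 336 CPM at d8 and 271 and 241 CPM at d16 without AICAR, against 868 and 794 CPM at d8 and 497 and 641 CPM at d16 with it. Every AICAR library was above the others (log2 fold change 1.42, SE 0.23, adjusted p = 0.0118). Trp53inp1, a p53-induced regulator of autophagy and death, stood at 505 and 619 CPM at d8 and 189.9 and 276 CPM at d16 with AICAR, against 156 and 268 CPM at d8 and 118 and 83.6 CPM at d16 without it, where AICAR d16 overlapped 2iL d8 (log2 fold change 1.30, SE 0.23, adjusted p = 0.0151). Perp, which also belongs to desmosomes, stood at 3.78 and 2.8 CPM at d8 and 15.2 and 4.2 CPM at d16 without AICAR, against 84 and 164 CPM at d8 and 49.5 and 38.8 CPM at d16 with it (log2 fold change 3.39, SE 0.66, adjusted p = 0.0218). The kinase Plk2 (log2 fold change 1.68, SE 0.38, adjusted p = 0.0315), the BH3-only protein Pmaip1 or Noxa (log2 fold change 2.59, SE 0.57, adjusted p = 0.0294) and Gtse1 (log2 fold change 1.48, SE 0.31, adjusted p = 0.0254) were the other 3. The arrest gene Cdkn1a (p21) stood at 383 and 475 CPM at d8 and 233 and 334 CPM at d16 with AICAR, against 145 and 361 CPM at d8 and 108 and 159 CPM at d16 without it. Within each day both AICAR libraries were above the other 2, but the test was not passed (log2 fold change 0.92, SE 0.29, adjusted p = 0.0783). Mdm2 (log2 fold change 0.68, SE 0.22, adjusted p = 0.0844), Bax (log2 fold change 0.04, SE 0.17, adjusted p = 0.901) and Bbc3 (log2 fold change −0.00, SE 0.33, adjusted p = 0.998) did not pass the test. Without the 2 shallow libraries 16 of 20 were above 0 (median 0.66), and 0 to 8 were called with 1 library left out, with 0 without AICAR d8. In thinned counts 8 were called.

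**Figure D4:**
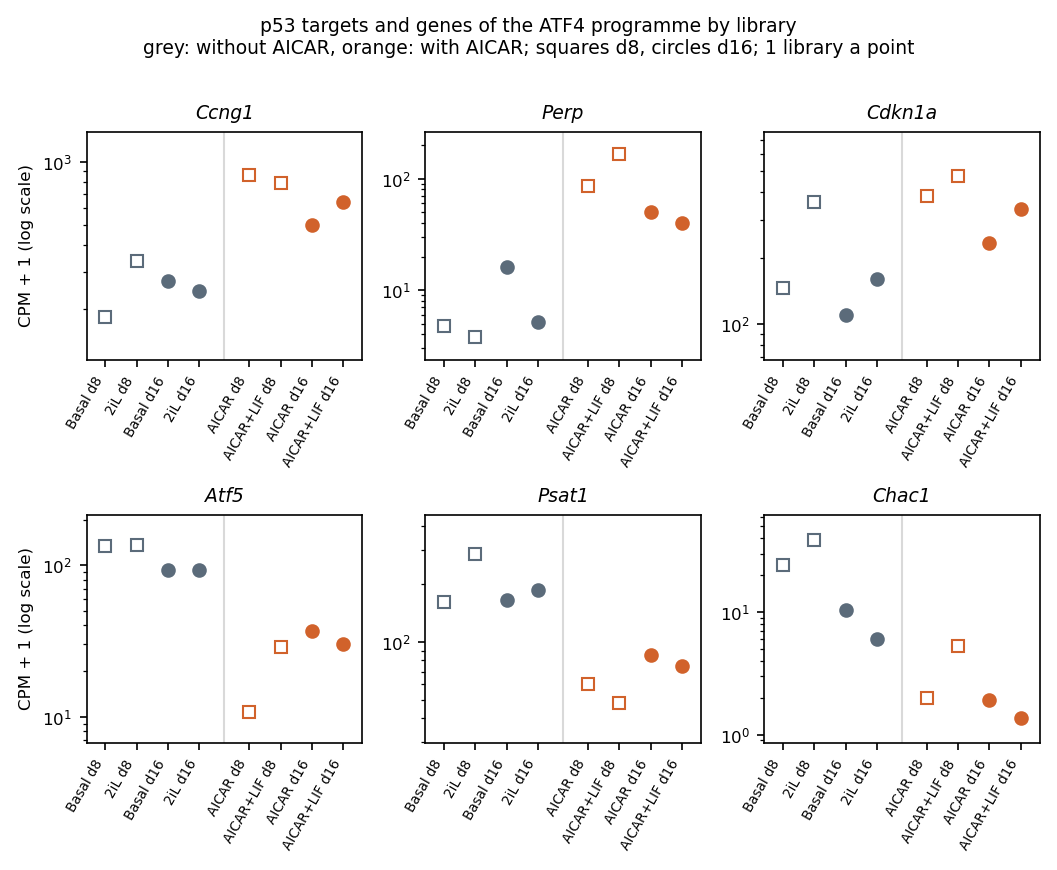
Levels of 3 p53 targets (Ccng1, Perp, Cdkn1a) and 3 genes of the ATF4 programme (Atf5, Psat1, Chac1) in the 8 libraries, as CPM plus 1 on a log axis, with libraries without AICAR in grey and with AICAR in orange, d8 as open squares and d16 as filled circles. Ccng1 and Perp are above the other side in every AICAR library, Atf5, Psat1 and Chac1 are below, and Cdkn1a overlaps.

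Few genes of the other stress lists were called. Of 19 chaperones and genes of the unfolded protein response (median −0.08) 0 were called by edgeR or limma voom and 2 by DESeq2, and 3 had an unadjusted p under 0.05. The chaperone Hspa5 (BiP) was among those not called (log2 fold change −0.30, SE 0.16, adjusted p = 0.24). Of 18 genes of oxidative stress (median 0.01) 0 were called by edgeR or limma voom and 1 by DESeq2, and 3 had an unadjusted p under 0.05. Heme oxygenase Hmox1 was not called (log2 fold change −0.05, SE 0.49, adjusted p = 0.966). The metallothionein Mt1 stood at 7.56 and 4.8 CPM at d8 and 213 and 303 CPM at d16 without AICAR, against 12.7 and 31.9 CPM at d8 and 105 and 130.3 CPM at d16 with it, above the other libraries at d8 and below them at d16 (log2 fold change −0.19, SE 0.56, adjusted p = 0.867). Of 12 heat shock genes 1 rose (3.54% of all genes), the mitochondrial chaperonin Hspd1 (log2 fold change 0.56, SE 0.14, adjusted p = 0.0416).

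Lysosomal genes rose in 5 of 29 (3.54% of all genes) and fell in 0 (median 0.20). In all 5 every AICAR library was above the others, as in 4.93% of all genes tested and in 310 of the 497 higher genes. The count of higher members was 2 without AICAR d8, AICAR+LIF d16 or Basal d8 and 8 without 2iL d16. Gpnmb, a lysosomal glycoprotein of phagocytes, stood at 107 and 209 CPM at d8 and 49.5 and 75.3 CPM at d16 with AICAR, against 14.8 and 2.8 CPM at d8 and 11.6 and 17.6 CPM at d16 without it (log2 fold change 3.05, SE 0.56, adjusted p = 0.0184). Gla (log2 fold change 1.40, SE 0.26, adjusted p = 0.0182), the calcium channel Mcoln1 (log2 fold change 0.63, SE 0.16, adjusted p = 0.047) and the proton pump subunit Atp6v0d2 (log2 fold change 3.17, SE 0.53, adjusted p = 0.0129) rose as well. Of 12 listed macrophage markers 3 passed the filter, of which 1 rose (3.54% of all genes) and 0 fell. Of the 3, 2 had a fold change above 0 and 1 below. The summed level of the 12 listed was 67.2 to 270.3 CPM with AICAR and 5.20 to 45.7 without. Among them the lysozyme gene Lyz2 stood at 28.9 and 0.4 CPM at d8 and 20.8 and 4.2 CPM at d16 without AICAR, against 115 and 213 CPM at d8 and 45.1 and 74.2 CPM at d16 with it. Lyz2 did not pass the test (log2 fold change 2.78, SE 0.79, adjusted p = 0.06), and Cd68 rose (log2 fold change 1.85, SE 0.47, adjusted p = 0.0453). The defining markers Ptprc, Adgre1 and Csf1r were at most 2.93, 4.26 and 3.39 CPM in any library. The part of such cells in the lysosomal values was not tested. The adipocyte list summed to 17.0 to 59.8 CPM with AICAR and 20.6 to 289 without.

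Of 11 tested genes of interferon response and inflammation, 1 rose (3.54% of all genes) and 2 fell (6.06%), with a median of −0.12. H2-K1 (log2 fold change −2.41, SE 0.51, adjusted p = 0.0262) and H2-D1 (log2 fold change −1.86, SE 0.47, adjusted p = 0.0417), class I histocompatibility genes whose reads related copies can share, fell, mainly at d16 (−3.20, adjusted p = 0.0171, and −2.83, adjusted p = 0.0133). The 1 that rose, prostaglandin synthase Ptgs2, stood at 115 and 145 CPM at d8 and 10.9 and 73.1 CPM at d16 with AICAR, against 16.8 and 7.6 CPM at d8 and 9.28 and 3.36 CPM at d16 without it (log2 fold change 3.01, SE 0.59, adjusted p = 0.0224). Of 29 genes of the cell cycle 5 rose (3.54% of all genes) and 0 fell (median 0.51). They were the replication helicase genes Mcm3, Mcm4, Mcm5 and Mcm6 and the checkpoint kinase Bub1 (log2 fold change 1.20, SE 0.25, adjusted p = 0.0258). Mcm5 stood at 71.5 and 84.4 CPM at d8 and 29.2 and 37.4 CPM at d16 without AICAR, against 115 and 140.5 CPM at d8 and 78.8 and 68.9 CPM at d16 with it (log2 fold change 0.93, SE 0.17, adjusted p = 0.0182). Mki67 did not pass the test (log2 fold change 0.70, SE 0.22, adjusted p = 0.0738). The count was 7 without 2iL d8, 5 without 2iL d16, 0 without Basal d8 and 1 without any other library. At d8 1 member, E2f1, was called lower (−1.48, adjusted p = 0.0345), and at d16 4 were called higher (0.692% of all genes) and 29 of 29 were above 0 without the 2 shallow libraries (median 1.0). Of 4 tested vessel genes and 9 of extraembryonic endoderm, 0 were called over both days by edgeR or limma voom, DESeq2 called 1 and 3, and 1 and 4 had an unadjusted p under 0.05. By day, edgeR called the endoderm list's Apoe and Dab2 higher at d8 (3.97% of all genes), its Lama1 higher at d16 (0.692%) and Apoe lower at d16 (1.96%). The endoderm gene Afp had 0 counts in every library.

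The difference with AICAR changed between the days in 28 genes (0.200% of those tested) by the interaction of AICAR and day (edgeR, 4 residual degrees of freedom), of which 18 moved down and 10 up from d8 to d16. The number depended on the method. It was 334 in DESeq2 and 0 in limma voom, where 1751 had an unadjusted p under 0.05, and with 1 library left out it was 751 without Basal d16, 196 without 2iL d16 and 0 without any other. Keratin 18, Krt18, a keratin of simple epithelia (ENSMUSG00000023043, GRCm38 chromosome 15, 102028180 to 102032027), stood at 219 and 483 CPM at d8 and 24.3 and 36.2 CPM at d16 with AICAR, against 11 and 6.4 CPM at d8 and 132 and 195 CPM at d16 without it. It was higher at d16 than at d8 without AICAR and lower at d16 with it. The difference was 5.30 (adjusted p = 0.00531) at d8 and −2.44 (adjusted p = 0.0318) at d16, a change of −7.74 on the log2 scale (SE 0.66, adjusted p = 0.0307). Its partner Krt8 stood at 47.8 and 20.4 CPM at d8 and 144 and 218 CPM at d16 without AICAR, against 325 and 524 CPM at d8 and 65.4 and 61.8 CPM at d16 with it, a change of −5.13 on the log2 scale (SE 0.59, adjusted p = 0.0307), and its pseudogene Krt8-ps, with which it can share reads, moved alike. The junction protein F11r, the laminin Lama5 and the adhesion molecule Bcam were in the same group.

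Apoe, the lipid carrier of astrocytes and macrophages (ENSMUSG00000002985, GRCm38 chromosome 7, 19696109 to 19699188), stood at 101 and 158 CPM at d8 and 437 and 269 CPM at d16 with AICAR, against 36.8 and 41.6 CPM at d8 and 2368 and 3991 CPM at d16 without it. It was under 160 CPM in every library at d8 and far higher at d16 without AICAR than with it, a change of −4.87 on the log2 scale (SE 0.52, adjusted p = 0.0307). Pbxip1 stood at 46.4 and 35.2 CPM at d8 and 462 and 501 CPM at d16 without AICAR, against 104 and 95.8 CPM at d8 and 183 and 200.4 CPM at d16 with it, a change of −2.62 on the log2 scale (SE 0.27, adjusted p = 0.0307). Slc12a4, a potassium chloride cotransporter, stood at 67.4 and 91.5 CPM at d8 and 82.5 and 84.4 CPM at d16 with AICAR, against 14.4 and 14 CPM at d8 and 104 and 110.0 CPM at d16 without it, a change of −2.82 on the log2 scale (SE 0.29, adjusted p = 0.0307). In these 3 genes the AICAR libraries were the higher ones at d8 and the lower ones at d16. The reverse was read for Ptpro, a receptor phosphatase, at 36.1 and 26.4 CPM at d8 and 8.72 and 8.82 CPM at d16 without AICAR, against 0.977 and 2.13 CPM at d8 and 21.2 and 18.1 CPM at d16 with it, a change of 5.64 on the log2 scale (SE 0.61, adjusted p = 0.0307). Both AICAR levels of Ptpro at d8 were below the limit of detection, so the size of its change is uncertain. The same reverse was read for the glutamate transporter Slc17a6, the secretory Chgb and the receptor Ret, whose levels were lower at d16 than at d8 without AICAR and higher with it.

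**Figure D5:**
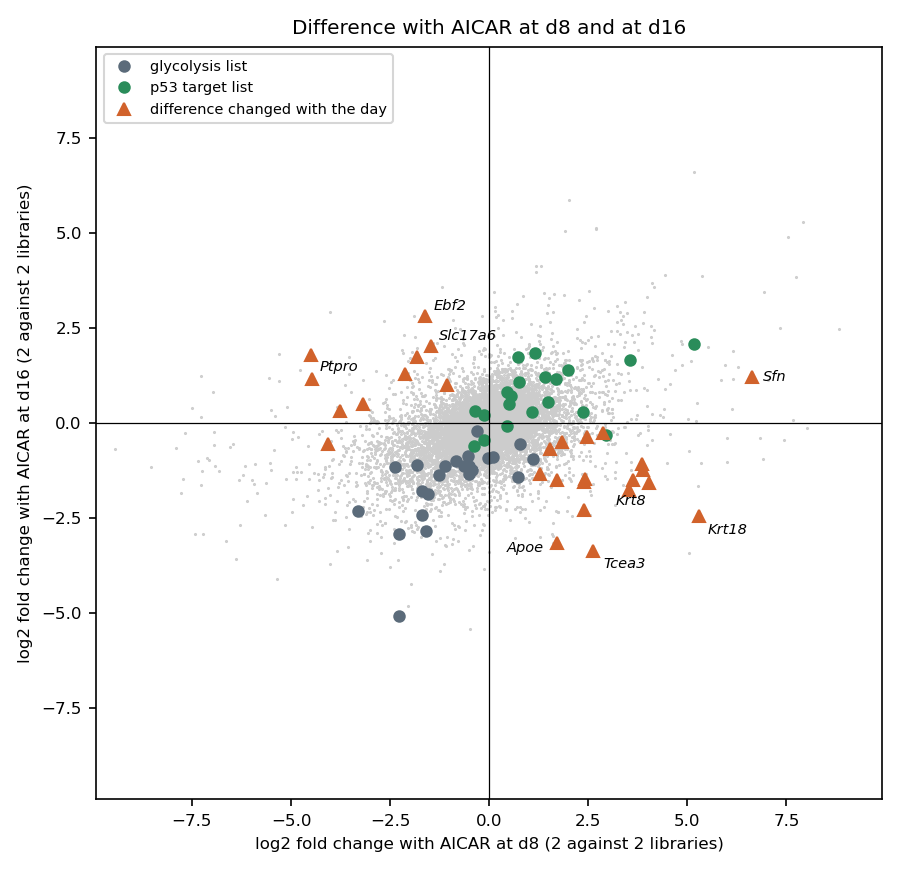
Log2 fold change with AICAR at d8 (horizontal) and at d16 (vertical) for all 14026 tested genes (light grey), with the glycolysis list in dark grey, the p53 target list in green and the 28 genes whose difference changed with the day as orange triangles. Krt18 lies at 5.30 and −2.44, Apoe at 1.70 and −3.17 and Ptpro at −4.48 and 1.16, and most glycolysis genes lie below 0 at both days. The d8 value of Ptpro rests on AICAR levels below the limit of detection.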

How the data were processed

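The authors deposited 1 table of read counts for each gene and library. Per the study's methods, single reads of stranded mRNA libraries were demultiplexed with BCL2FASTQ and aligned with Bowtie2 2.2.5 to Ensembl mouse transcripts (GRCm38), low mapping qualities were removed, and reads were summed by gene, so reads of near-identical copies are uncertain. Libraries were grouped by their labels. The genes, lists and promoters were chosen with earlier results of these data known.

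From these counts, genes were filtered by group (filterByExpr) and the 2 sides were compared with edgeR 4.0.16, its quasi-likelihood test with TMM factors and the day as covariate (5 residual degrees of freedom), and Benjamini-Hochberg adjustment over 14026 genes at 0.05. Differences at d8 and d16 came from a model with the interaction of AICAR and day, a choice made after the data were seen. All adjusted p-values are from edgeR unless another tool is named. DESeq2 1.42.0, limma 3.58.1 and other settings were alternatives. The fit was tested on simulated counts that held no difference between days or media. That test cannot show how the fit behaves where media stand in as replicates. Python 3.11.15, pandas 2.3.3 and matplotlib 3.10.9 made the tables and figures, under R 4.3.3 for the fits.

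Genes named in the text are the 8 with the largest change in each direction among called genes with sides that do not overlap and a mean log2 level of 3 CPM or more, up to 3 called members per list and direction, anchors fixed for each list and the 5 with the lowest p in the interaction test. Other called members of a list, and untested ones, were named after their values were seen. A few genes that the rule names are not reported here. The 14 other libraries entered only the fit of all 22.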

Additional observations from a re-analysis of the deposited data

Results flagged for a closer look

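In 10 of 230 groups of 4 libraries tested for 1 library that stood apart (chance gives about 1 in 20), the gap to the nearest library was large for the range. On the side without AICAR, 2iL d16 was high for Acta2 (498.5 CPM) and Gata6 (6.30 CPM), Basal d16 for Gata4 (0.1895 CPM) and Zfp42 (0.379 CPM), and Basal d8 for Pou5f1 (1.375 CPM). Low libraries on that side were Basal d8 for Adk (19.6 CPM) and 2iL d8 for Ccl2 (0.4 CPM) and Col4a2 (125.6 CPM). With AICAR, AICAR d8 was low for Atp7b (0.977 CPM) and AICAR+LIF d8 for Ndufs1 (85.1 CPM). The values for Gata4, Zfp42, Pou5f1, Ccl2 and Atp7b each rest on 1 to 4 counts.

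The difference with AICAR changed from d8 to d16, by the interaction test, by −4.87 on the log2 scale for Apoe, −7.74 for Krt18, −5.13 for Krt8, −2.62 for Pbxip1 and −2.82 for Slc12a4, and by 5.64 for Ptpro, which was below the limit of detection with AICAR at d8. In 3 further genes both AICAR libraries were above the other 2 at d8 and below them at d16, but the interaction was not called. The change was −2.82 for Mt1, −2.14 for Slc2a1 and −3.60 for Thy1.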

How the results depend on the processing

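Of 73 named genes that were called over both days, 0 changed the sign of a call under any alternative, but the number of calls depended strongly on the libraries and the fit. Without normalization factors 776 genes were higher and 650 lower, DESeq2 gave 885 and 1255, limma voom 608 and 828, and limma voom with sample quality weights 1022 and 1179. Without a filter the numbers were 1149 and 1994 of 29643 genes tested, with at least 10 counts in every library 312 and 480 of 8385, and in counts thinned to 438771 for each library 242 and 507 of 8823, where fewer genes were tested. No term for the day gave 10 and 27, day and LIF together 404 and 733, and the spread of all 22 libraries 1077 and 1319. In d8 libraries only, 1179 genes were higher and 1616 lower, and at d16 in the interaction model 97 and 275. In edgeR, 0 genes were called in either direction in d16 libraries only (2527 with an unadjusted p under 0.05), without both AICAR libraries at d8 (3007), for AICAR against Basal only (2778) and for AICAR+LIF against 2iL only (1167). These 4 fits hold fewer samples than the main fit, as does that of the d8 libraries only. A fit of 1 day alone has 2 residual degrees of freedom and a fit of 2 media has 1. The cause of these changes was not tested. With 1 library left out, 68 to 1146 genes were higher and 177 to 1508 lower. The lowest numbers were without AICAR d8 and the highest without 2iL d16. Without any of the other 6 libraries 114 to 263 were higher and 280 to 473 lower, so AICAR+LIF d8, AICAR d16, AICAR+LIF d16, Basal d8, 2iL d8 and Basal d16 each moved the count of higher genes by over 1.5 times. Of the 73 named genes, 23 were called without AICAR d8 and 72 without 2iL d16, 73 in DESeq2 and 66 in limma voom.

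Genes whose difference changed between the days numbered 28, against 334 in DESeq2 and 0 in limma voom (1751 with an unadjusted p under 0.05), 27 without factors and 0 to 751 with 1 library left out. Some genes that were not called over both days had opposite signs at the 2 days. Apoe was at 1.66 on the log2 scale in d8 libraries only and 1.70 at d8 in the interaction model, Hmox1 at 1.0 in d8 libraries only, Krt18 at −2.44 at d16, and Pbxip1 at 1.26 and 1.29 at d8 in the same 2 fits. The labels give no replicate numbers that the groups share. The fit with day and LIF as covariates, 404 higher and 733 lower, sets Basal medium beside AICAR and 2iL beside AICAR+LIF.

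The 2 AICAR libraries at d8 are the shallowest, so depth and AICAR cannot be told apart at d8 beyond what thinning shows. In AICAR+LIF d8 a gene under 6.84 CPM, taken without the TMM factor, had fewer than 3 counts, and a gene absent there may be present at a lower level. LIF and the inhibitors of 2iL cannot be told apart within the side without AICAR. With a single library of each medium and day, the spread that the tests use is that between media.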
